A study of Mus musculus with 12 samples.

Results

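Transcripts of 10 genes of hepatic iron regulation were followed in the livers of 12 mice: the hepcidins Hamp and Hamp2, the upstream regulators Bmp6, Hfe and Tfr2, the BMP target Id1, and Tfrc, Trf, Slc40a1 and Fth1, which carry, release or store iron. The members were chosen by symbol and found through their Entrez identifiers, with their counts and fold changes in these libraries already known from earlier work. Their fold changes are therefore a description of a fit across all genes and not independent support for any pattern. All 10 were among the 27179 genes of the count table, and all 10 were among the 13947 genes with enough counts to be tested. There were 4 groups of 3 young adult male mice, Vec or c-MET/β-catenin on CD (chow diet) or LPD (low-protein diet), and 1 bulk liver library per mouse. c-MET/β-catenin mice received plasmids for c-MET and ΔN90-β-catenin, an amino-terminally truncated and therefore stabilised form, through a hydrodynamic injection into the tail vein, with the Sleeping Beauty transposase to insert them, and Vec mice received the empty vector. This delivery reaches a part of the hepatocytes, so a c-MET/β-catenin liver holds transfected and untransfected cells. All groups were harvested when the CD c-MET/β-catenin mice reached their end point, after a short fast. The paper reports that LPD had lowered the tumor burden of c-MET/β-catenin mice by then. Diet and tumor burden therefore differ together wherever c-MET/β-catenin livers are compared across diets, including the interaction. The study's methods give the strain in more than one way, and the comparisons ask how the oncogenes changed liver transcripts on each diet and whether dietary protein altered that change.

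Hepcidin is a peptide hormone made by hepatocytes. It binds ferroportin, the iron exporter encoded by Slc40a1, and causes its degradation, so high hepcidin lowers the release of iron into plasma. Its transcription is raised by BMP6 and BMP2, which are made largely by liver sinusoidal endothelial cells and signal through SMAD proteins, and by interleukin-6 through STAT3. HFE and transferrin receptor 2 carry a signal from iron-loaded transferrin, and erythroferrone from erythroid precursors lowers hepcidin. Mice carry a hepcidin pair: Hamp encodes the iron-regulatory hormone, and the close paralog Hamp2 is not known to share that role.

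Both hepcidin genes lie on chromosome 7, in the mouse build GRCm38 (mm10) with gene positions from RefSeq, Hamp at chr7:30942368-30944029 and Hamp2 at chr7:30922372-30924181. The other members, all protein-coding, lie at chr13:38345716-38500314 (Bmp6), chr2:152736251-152737410 (Id1), chr13:23702034-23710854 (Hfe), chr5:137569822-137588081 (Tfr2), chr16:32608896-32632794 (Tfrc), chr9:103208876-103230286 (Trf), chr1:45908070-45926532 (Slc40a1) and chr19:9980600-9985111 (Fth1). The aligned GENCODE M21 transcripts shared 388 of 410 bases (94.6%). Of the 371 stretches of 50 bases in the Hamp2 transcript, 60 (16.2%) were also present in Hamp, so reads of that length from those stretches cannot be assigned to 1 gene. Of the 321 stretches of 100 bases none was shared (0.0%), and the sources used here give the read length in more than one way. The sum of both genes is therefore given beside each. The promoter windows, from 250 bases before to 50 bases after the RefSeq start site, are shown because both genes fell together on CD. Capitals mark the letters GGCGCC, which match the core of the BMP-responsive element, and the letters TTCNNNGAA, which match a STAT site. Both patterns read the same on either strand and did not overlap in these windows.
Hamp, chr7:30943980-30944279, minus strand: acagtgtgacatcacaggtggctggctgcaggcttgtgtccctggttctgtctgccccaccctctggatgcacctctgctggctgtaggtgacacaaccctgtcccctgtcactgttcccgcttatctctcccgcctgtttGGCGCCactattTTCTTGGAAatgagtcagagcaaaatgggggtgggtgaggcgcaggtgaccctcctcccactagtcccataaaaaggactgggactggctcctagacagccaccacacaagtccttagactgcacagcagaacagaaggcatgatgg
Hamp2, chr7:30924132-30924431, minus strand: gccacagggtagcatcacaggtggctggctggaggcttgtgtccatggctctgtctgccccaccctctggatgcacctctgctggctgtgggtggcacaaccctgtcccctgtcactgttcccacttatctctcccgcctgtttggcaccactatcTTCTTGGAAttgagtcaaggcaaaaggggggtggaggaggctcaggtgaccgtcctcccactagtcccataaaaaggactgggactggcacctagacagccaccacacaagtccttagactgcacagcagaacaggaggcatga

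The 2 windows shared 276 of 297 aligned bases (92.9%). GGCGCC stood 109 bases before the start site of Hamp. At the aligned place Hamp2 differed by the substitution G4A, counted from the first base of GGCGCC with the Hamp base given first, and its window held no GGCGCC. TTCTTGGAA was present in both, 97 bases before the start site of Hamp and 94 bases before that of Hamp2. Among 32851 RefSeq windows of the same length, 11.9% held GGCGCC, 8.3% held TTCNNNGAA and 0.645% held both. Windows were found for 7 of the 10 members, and among the other 5 genes of these, 1 Tfrc window held GGCGCC, 89 bases before its start site. The table gave no window for Id1, Trf and Slc40a1. A match of letters is a description and not a bound site.

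A trio of members, Tfrc, Fth1 and Slc40a1, carries iron-responsive elements, hairpins in the mRNA that are bound by iron regulatory proteins when iron is scarce. Binding in the 5′ UTR blocks translation, and binding in the 3′ UTR protects the mRNA from decay, so a transcript level alone does not give the protein level of Fth1 or Slc40a1. The elements are shown with the loop in capitals, found in GENCODE M21 transcripts by the loop and a paired stem.
Tfrc 3′ UTR, first of 4, chr16:32631220-32631246, plus strand: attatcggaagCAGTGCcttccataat
Tfrc 3′ UTR, second of 4, chr16:32631599-32631625, plus strand: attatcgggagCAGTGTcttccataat
Fth1 5′ UTR, chr19:9982733-9982759, plus strand: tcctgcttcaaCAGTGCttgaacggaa
Slc40a1 5′ UTR, chr1:45925466-45925492, minus strand: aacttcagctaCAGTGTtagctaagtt

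Levels are given as CPM, read counts scaled to the TMM-adjusted library total. Library totals ran from 19476209 to 31990267 reads. Tests were edgeR quasi-likelihood fits over all 4 groups with Benjamini-Hochberg adjustment over 13947 genes, and a gene was called at an adjusted p under 0.05. The count table's column headers carry dataset numbers, whose meaning is not stated. They were cut here into 3 runs at their widest gaps: 154 and 155, 172 to 181, and 191 to 193. The CD c-MET/β-catenin group had 2 libraries in a run of its own, CD Vec had 2 libraries and LPD Vec 1 in another, and the other 7 libraries shared the third. Run and group can therefore be told apart only in part, and values within the 7 libraries, called the shared run here, are given as differences of mean log2 CPM beside some of the members' values.

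Hepcidin mRNA was lower in the CD c-MET/β-catenin livers than in any other group. Hamp was at 668, 1077 and 608 CPM in the CD Vec livers and at 61.9, 97.8 and 11.04 CPM in the CD c-MET/β-catenin livers. On LPD it was at 825, 809.6 and 727 CPM in Vec and at 452, 581 and 995 CPM in c-MET/β-catenin. All 3 CD c-MET/β-catenin libraries were below the other 9, and the remaining 3 groups overlapped. The group means ± SD were 784 ± 255 CPM for Vec and 56.9 ± 43.6 CPM for c-MET/β-catenin on CD, and 787 ± 52.9 and 676 ± 284 CPM for the same groups on LPD (n = 3 each). In bulk liver, fewer cells that express a gene and less RNA per cell cannot be told apart.

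Hamp2 was less abundant and more variable. It was at 156, 22.7 and 35.5 CPM in CD Vec and at 0.116, 1.18 and 1.12 CPM in CD c-MET/β-catenin, where it rested on 4, 29 and 30 reads. On LPD, Vec livers held 17.2, 6.08 and 6.10 CPM and c-MET/β-catenin livers 1.27, 3.33 and 2.76 CPM. The 4 groups did not overlap, Vec being above c-MET/β-catenin on each diet, CD Vec above all and the oncogene livers on CD below all. Hamp2 made up 18.9% of the summed hepcidin reads in CD Vec replicate 1, 9.23% in CD c-MET/β-catenin replicate 3 and 5.51% in CD Vec replicate 3, and 2.06% or less in the other 9 libraries. The sum therefore followed Hamp, with 824, 1100.0 and 643 CPM in CD Vec, 62.0, 99.0 and 12.2 CPM in CD c-MET/β-catenin, 843, 816 and 733 CPM in LPD Vec and 453, 584 and 998 CPM in LPD c-MET/β-catenin.

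**Figure D1:**
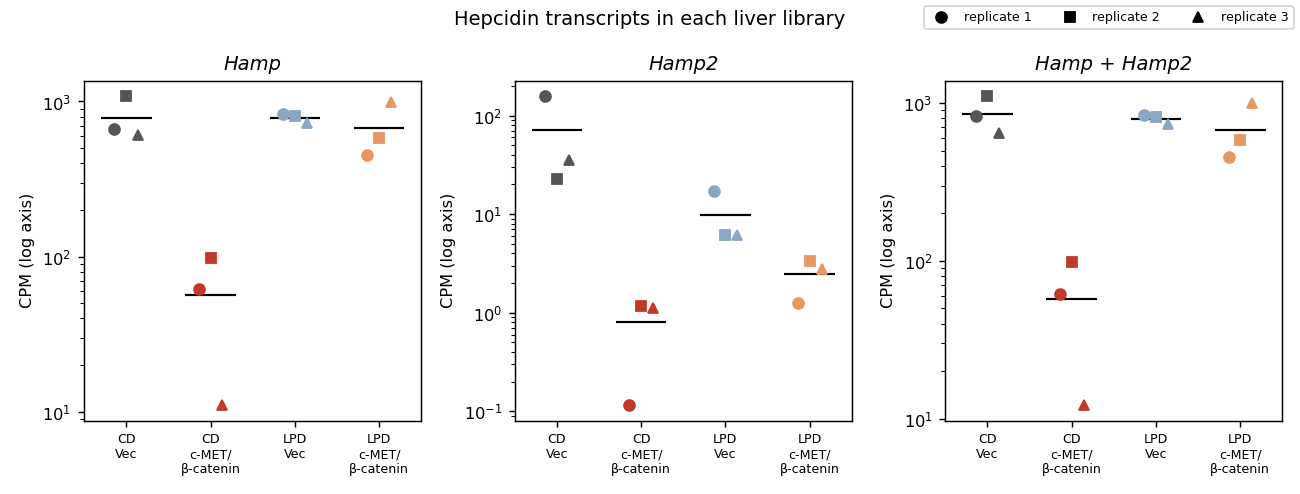
CPM of Hamp, Hamp2 and their sum on log axes in the 4 groups, 1 point per liver with the marker giving the replicate number and a line at the group mean. The CD c-MET/β-catenin livers lie at 11.04 to 97.8 CPM of Hamp, below all other livers, and Hamp2 spreads from 0.116 to 156 CPM.

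With the oncogenes on CD, the sum of both hepcidins was 14.8-fold lower than in Vec (log2 fold change −3.89, SE 0.61, edgeR adjusted p = 0.000688). Hamp fell by 3.79 on the log2 scale (SE 0.63, adjusted p = 0.000984) and Hamp2 by 6.53 (SE 0.97, adjusted p = 0.000521). Leaving out each library in turn gave log2 fold changes of the sum from −4.53 to −3.42, all called, and of Hamp2 from −6.97 to −5.22, also all called. In the shared run, with 1 library per group on CD, the difference of the sum was −5.71, against −4.31 for the same difference of mean log2 CPM over all libraries. With the run as a term in the fit, the sum and Hamp stayed past the threshold, and Hamp2 did not (log2 fold change −4.92, adjusted p = 0.0697). For Hamp2 the difference was −4.88 in the shared run and −6.21 over all libraries.

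On LPD the oncogenes did not move hepcidin past the threshold. The sum differed by −0.23 on the log2 scale (SE 0.55, edgeR adjusted p = 0.945), and Vec and c-MET/β-catenin livers overlapped. Hamp2 was lower in all 3 c-MET/β-catenin livers, by 1.98 on the log2 scale, without passing the test (SE 0.81, adjusted p = 0.38). Between the diets in Vec livers, the sum differed by −0.10 (SE 0.55, adjusted p = 0.977). Hamp2 was again lower in all 3 LPD livers and not called (log2 fold change −2.87, SE 0.78, adjusted p = 0.164), and without CD Vec replicate 1, the liver with the most Hamp2, that value was −1.57. With the oncogenes present, the sum was 11.8-fold higher on LPD than on CD (3.56 on the log2 scale, SE 0.60, adjusted p = 0.0028) and Hamp was 3.57 higher on the log2 scale (SE 0.63, adjusted p = 0.00339). Hamp2 was not called there (1.69, adjusted p = 0.24), and its difference was 0.97 in the shared run against 1.80 over all libraries. This diet comparison uses the same 3 oncogene libraries on CD as the one against Vec. It also sets mice at their tumor end point against mice with less tumor.

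The log2 fold change of hepcidin with the oncogenes differed between the diets at this harvest. Tumor burden differed along with diet, and the part of each in this difference was not tested. The injection by diet interaction of the sum was 3.66 on the log2 scale (SE 0.80, edgeR adjusted p = 0.0206), the log2 effect on LPD minus that on CD. Hamp gave 3.56 (SE 0.83, adjusted p = 0.0256) and Hamp2 4.55 (SE 1.21, adjusted p = 0.0418). Dropping LPD Vec replicate 2, LPD Vec replicate 3 or LPD c-MET/β-catenin replicate 3 took the sum to adjusted p = 0.0583, 0.0533 and 0.0511, with values of 3.67, 3.61 and 3.28. The single genes were less stable: with 1 library left out, Hamp stayed called in 7 of 12 fits (3.08 to 4.21, adjusted p up to 0.0694) and Hamp2 in 3 of 12 (3.23 to 5.23, adjusted p up to 0.102). Without the filter on low counts neither was called (adjusted p = 0.059 and 0.105), and Hamp2 was also lost with the replicate block (adjusted p = 0.066) and with the run as a term (3.60, adjusted p = 0.298). Within the shared run the interaction of the sum was 5.45, against 4.0 over all libraries on the scale of mean log2 CPM.

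Over the whole list, 7 of the 10 members were called on CD, 2 higher and 5 lower with the oncogenes, where 35.4% of the 13947 genes were called, 18.7% higher and 16.7% lower. With the run as a term in the fit, 2 members were called, Hamp and Tfrc. None was called on LPD, where 1.32% of all genes were called (1.15% higher and 0.165% lower), and DESeq2 also called none, while 2 members had an unadjusted p under 0.05. None was called between the diets in Vec livers either, against 0.308% of all genes (0.186% higher and 0.122% lower), with none by DESeq2 and 2 members at an unadjusted p under 0.05. With the oncogenes, 5 members were called between the diets (3 members higher, 2 lower on LPD), against 20.0% of all genes (8.66% higher and 11.3% lower). For the interaction, 3 members were called (Hamp, Hamp2 and Slc40a1), all positive, against 8.91% of all genes (4.49% positive and 4.42% negative). The members' median log2 fold changes were −0.49, −0.17, −0.02, 0.33 and 0.30 in the order of these 5 comparisons, beside −0.01, 0.01, −0.03, −0.01 and 0.02 for all genes.

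**Figure D2:**
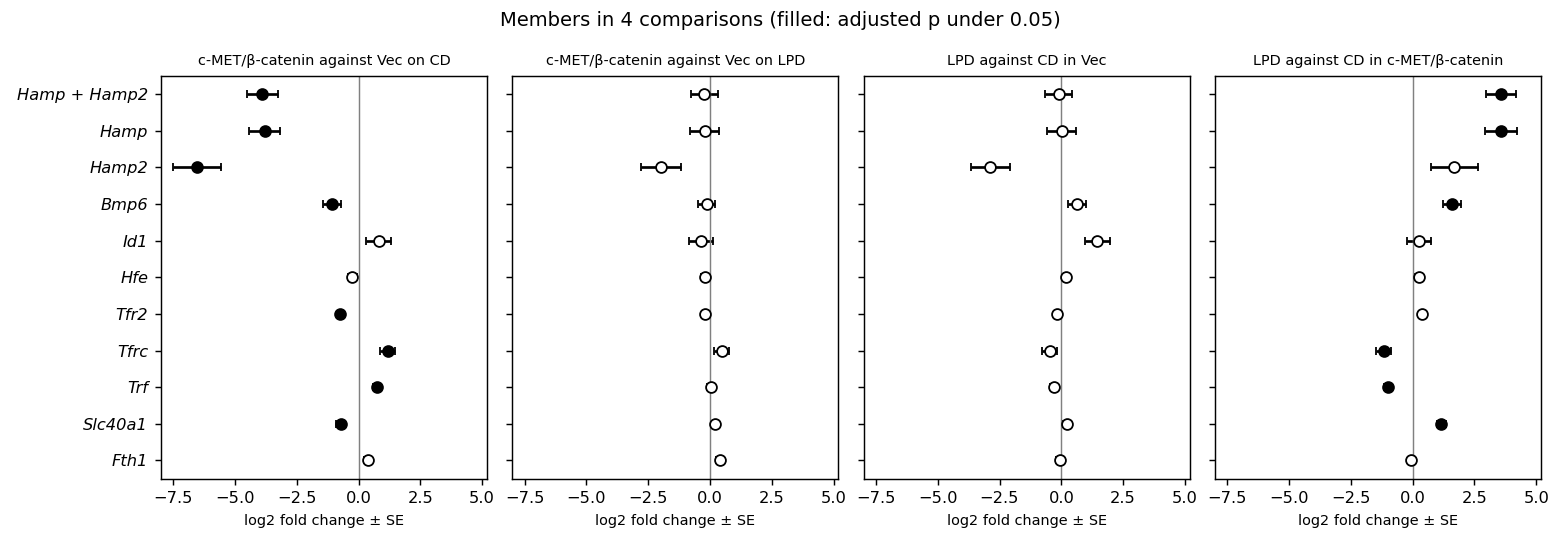
Log2 fold change with its standard error for each member and the hepcidin sum in 4 comparisons, filled where the edgeR adjusted p was under 0.05. Filled points stand only in the first and the last panel, with the hepcidin sum at −3.89 on CD and at 3.56 for LPD against CD in c-MET/β-catenin livers.

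Bmp6, the main iron-responsive ligand upstream of hepcidin, was a low-abundance transcript. It was at 7.34, 2.22 and 5.26 CPM in CD Vec and at 2.31, 2.73 and 1.91 CPM in CD c-MET/β-catenin, and on LPD at 6.86, 9.46 and 6.72 CPM in Vec and 6.21, 5.93 and 8.88 CPM in c-MET/β-catenin. CD Vec replicate 2 lay among the CD c-MET/β-catenin livers, and both LPD groups lay above all 3 of these. The fall on CD was called (log2 fold change −1.09, SE 0.36, edgeR adjusted p = 0.0341) but was kept in only 3 of 7 alternatives, being lost with total counts alone (−0.82, adjusted p = 0.103), only the compared groups (−1.12, adjusted p = 0.112), the replicate block (−1.06, adjusted p = 0.0655) and the run as a term (−1.50, adjusted p = 0.202). It also depended on single livers: without CD Vec replicate 1 it was −0.70 (adjusted p = 0.162), and the call also ended without CD Vec replicate 3 (adjusted p = 0.0763) or without the oncogene livers 1 or 3 on CD (adjusted p = 0.0752 and 0.092). With the oncogenes Bmp6 was 3.02-fold higher on LPD than on CD (1.59 on the log2 scale, SE 0.36, adjusted p = 0.00998), a call that held in all 12 fits with 1 library left out but not with the run as a term (1.87, adjusted p = 0.114). In the shared run the CD difference was −1.42, against −0.92 over all libraries, and the interaction 1.21, against 0.78. The fitted interaction was 0.96 (SE 0.50, adjusted p = 0.251), and was 1.31 and called without CD Vec replicate 2 (adjusted p = 0.045).

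Id1, a direct SMAD target of BMP signalling, was not called in any comparison and varied between livers of 1 group. It was at 11.9, 10.6 and 11.1 CPM in CD Vec, and at 19.4, 34.2 and 5.95 CPM in CD c-MET/β-catenin, the widest spread of the 4 groups relative to the mean (coefficient of variation 71.2%). LPD Vec livers held 29.0, 40.7 and 22.4 CPM and LPD c-MET/β-catenin livers 14.8, 21.8 and 35.4 CPM. CD Vec was the tightest group, and all LPD livers were above it. The log2 fold change was 0.82 on CD (SE 0.50, edgeR adjusted p = 0.23) and 1.45 between the diets in Vec (SE 0.51, adjusted p = 0.318). The CD value turned to −0.95 with the run as a term and was −0.89 within the shared run, where the value between the diets with the oncogenes was 1.90 against 0.50 over all libraries and the interaction 0.47 against −0.90. The CD value was 1.25 with an adjusted p of 0.0209 without CD c-MET/β-catenin replicate 3.

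Of the transferrin sensing pair, Tfr2 fell on CD and Hfe was not called. Tfr2, the hepatocyte receptor that signals transferrin saturation, was at 447, 547 and 507 CPM in CD Vec and at 330, 281 and 281 CPM in CD c-MET/β-catenin, without overlap. It fell by 0.75 on the log2 scale on CD (SE 0.13, edgeR adjusted p = 0.00116), a 1.68-fold difference that was called in all 12 fits with 1 library left out and had an adjusted p of 0.062 with the run as a term. On LPD the Vec livers held 438 to 452 CPM and the c-MET/β-catenin livers 357 to 437 CPM, all below Vec, with a log2 fold change of −0.20 that was not called (adjusted p = 0.674). With the oncogenes all 3 LPD livers were above those on CD, by 0.38 on the log2 scale (SE 0.13, adjusted p = 0.0602), and the interaction was 0.55 (SE 0.19, adjusted p = 0.0863). Neither was called, while DESeq2 called both (adjusted p = 0.0191 and 0.0246), and the diet value was also called in 2 of 12 fits with 1 library left out. Hfe, a partner of the transferrin receptors, ranged from 28.6 to 50.1 CPM over all 12 livers and was called in no comparison, with log2 fold changes from −0.26 to 0.24. Its CD value of −0.26 became −0.45 and was called without CD Vec replicate 2 (adjusted p = 0.033), and was 0.02 with total counts alone.

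Tfrc and Trf, the receptor and the carrier for transferrin-bound iron, rose with the oncogenes on CD, where hepcidin fell. Tfrc was at 29.0, 29.8 and 23.0 CPM in CD Vec and at 56.6, 39.3 and 89.8 CPM in CD c-MET/β-catenin. On LPD it was at 19.9, 19.9 and 19.0 CPM in Vec and at 35.1, 31.3 and 15.3 CPM in c-MET/β-catenin. The 3 CD c-MET/β-catenin livers were above the other 9, and the liver with the most Tfrc, replicate 3, was the one with the least Hamp. Tfrc rose 2.27-fold on CD (1.18 on the log2 scale, SE 0.31, edgeR adjusted p = 0.0123), including in the fit with the run as a term. With the oncogenes it was lower on LPD than on CD by 1.18 on the log2 scale (SE 0.31, adjusted p = 0.0206), which was no longer called without c-MET/β-catenin replicate 3 of CD or of LPD, with −0.81 (adjusted p = 0.0703) and −0.89 (adjusted p = 0.0613), nor with only the compared groups in the fit (−1.18, adjusted p = 0.0782). In the shared run the differences were 1.96 on CD, −1.81 between the diets with the oncogenes and −1.57 for the interaction, against 1.11, −1.19 and −0.72 over all libraries.

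Trf, which encodes plasma transferrin, was at 19610, 20600 and 22140 CPM in CD Vec and at 41900, 28320 and 34270 CPM in CD c-MET/β-catenin. On LPD it was at 16740 to 17470 CPM in Vec, below all CD livers, and at 15560 to 19960 CPM in c-MET/β-catenin, where the highest liver lay above the lowest of CD Vec. Trf rose 1.68-fold with the oncogenes on CD (0.74 on the log2 scale, SE 0.17, edgeR adjusted p = 0.00577) and was lower on LPD than on CD in c-MET/β-catenin livers by 0.99 on the log2 scale (SE 0.17, adjusted p = 0.00288). With the run as a term these were 0.67 (adjusted p = 0.206) and −0.96 (adjusted p = 0.0588). Within the shared run the differences of mean log2 CPM were 0.63 and −0.97, against 0.73 and −0.98 over all libraries. The interaction of Trf was −0.70 (SE 0.24, adjusted p = 0.0935) and that of Tfrc −0.71 (SE 0.44, adjusted p = 0.337), neither called. That of Trf passed the threshold in DESeq2 (−0.70, adjusted p = 0.0174) and with total counts alone (−0.87, adjusted p = 0.0396).

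Slc40a1, the target of hepcidin, was at 229, 142 and 203 CPM in CD Vec and at 106, 112 and 127 CPM in CD c-MET/β-catenin. On LPD it was at 199.8, 223 and 244 CPM in Vec and at 226, 253 and 291 CPM in c-MET/β-catenin. As for hepcidin, the 3 CD c-MET/β-catenin livers were below the other 9. Slc40a1 fell by 0.73 on the log2 scale on CD (SE 0.18, edgeR adjusted p = 0.0069), where scaling by total counts alone, which moved the median of all genes to 0.278, gave −0.45 (adjusted p = 0.074). It was 2.23-fold higher on LPD than on CD in c-MET/β-catenin livers (log2 fold change 1.15, SE 0.18, adjusted p = 0.00144). With the run as a term these were −0.71 (adjusted p = 0.181) and 1.01 (adjusted p = 0.0633). The interaction was 0.94 (SE 0.25, adjusted p = 0.0379) and was called in 2 of the 12 fits with 1 library left out, with adjusted p up to 0.0975. It was also lost with total counts alone (0.76, adjusted p = 0.0927), the replicate block (0.93, adjusted p = 0.051) and the run as a term (0.86, adjusted p = 0.258).

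Fth1, the ferritin heavy chain that stores iron, had the same log2 fold change with the oncogenes on both diets and was called on neither. It was at 1661, 1900.0 and 1490.0 CPM in CD Vec, 2097, 2503 and 2004 CPM in CD c-MET/β-catenin, 1801, 1557 and 1508 CPM in LPD Vec, and 2020.0, 2393 and 1968 CPM in LPD c-MET/β-catenin. All c-MET/β-catenin livers were above all Vec livers on the same diet. The log2 fold change was 0.39 on CD (SE 0.16, edgeR adjusted p = 0.0724) and 0.39 on LPD (SE 0.16, adjusted p = 0.349), with an interaction of 0.00 (SE 0.22). On CD it passed the threshold in DESeq2 (adjusted p = 0.0379), with total counts alone (0.68, adjusted p = 0.00391) and without CD Vec replicate 2 (0.48, adjusted p = 0.0448).

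**Figure D3:**
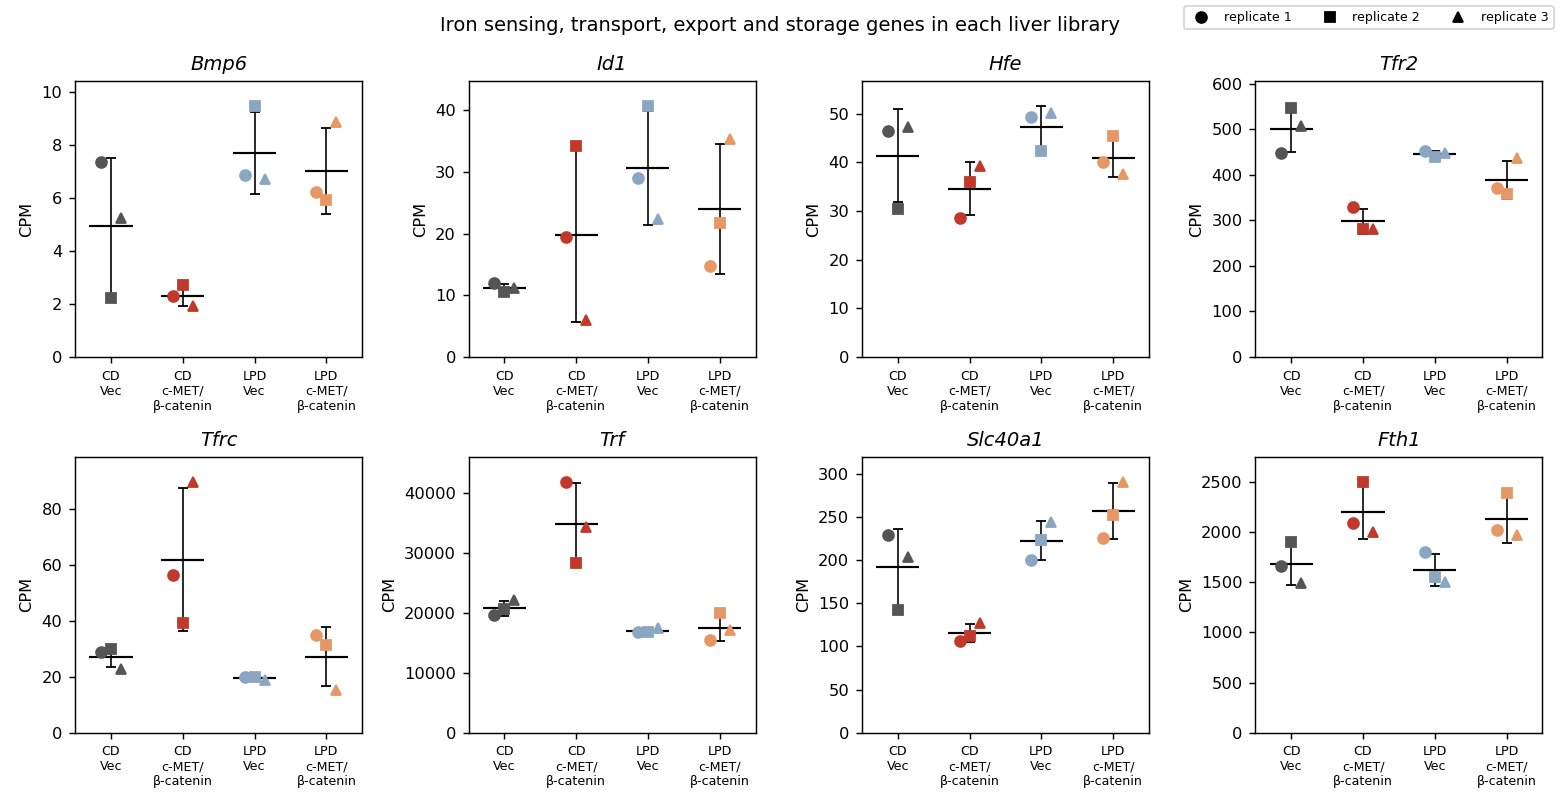
CPM of the 8 members other than the hepcidins, on axes that start at 0, with 1 point per liver, a line at the group mean and bars of 1 SD. Tfrc and Trf stand highest and Tfr2 and Slc40a1 lowest in CD c-MET/β-catenin, while Fth1 is at 1968 CPM or above in both c-MET/β-catenin groups.

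Per kilobase of exon, the order of mean levels in CD Vec was Trf (6260 ± 385 CPM per kb, SD, n = 3), Hamp (1913 ± 623), Fth1 (485 ± 59.3), Hamp2 (122.5 ± 126), Tfr2 (115 ± 11.6), Slc40a1 (21.3 ± 5.0), Hfe (11.6 ± 2.67), Id1 (9.67 ± 0.584), Tfrc (4.41 ± 0.605) and Bmp6 (1.27 ± 0.66). Hamp2 and Tfr2 did not differ beyond their spread, nor did Hfe and Id1. In CD c-MET/β-catenin, Hamp stood at 139 ± 106 CPM per kb, below Fth1 at 635 ± 76.6 and within its own spread of Tfr2 at 68.6 ± 6.46. Hamp2 stood at 1.38 ± 1.03 CPM per kb there, and Trf at 10490 ± 2050. In LPD c-MET/β-catenin, Hamp was at 1648 ± 693 CPM per kb, again second to Trf at 5289 ± 670.

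The other genes of the pathway were read from lists of 69 genes, 66 of them tested, also drawn up with earlier results known. On CD, 10 were called higher and 12 lower, with a median log2 fold change of −0.14, a share close to that of all genes (35.4%), so the counts below say nothing particular about iron genes and describe only which of them were called. None was called on LPD, where 7 had an unadjusted p under 0.05 and DESeq2 called none. Between the diets in Vec none was called by edgeR, 9 had an unadjusted p under 0.05, and DESeq2 called 2. In the oncogene livers 10 were higher and 5 lower on LPD than on CD (median 0.09), beside 8.66% and 11.3% of all genes, and for the interaction 5 were positive and 1 negative (median 0.12), beside 4.49% and 4.42%. With the run as a term, 2 were called on CD and 3 between the diets with the oncogenes.

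Among the 13 tested BMP input genes outside the members, 2 were called higher and 3 lower on CD, beside 18.7% and 16.7% of all genes. Bmp2, the other endothelial ligand of hepcidin, was at 16.8, 14.6 and 17.6 CPM in CD Vec and at 6.53, 5.59 and 3.63 CPM in CD c-MET/β-catenin, and at 12.1 to 20.7 CPM in the 6 LPD livers. The 3 CD c-MET/β-catenin livers were below the other 9. Bmp2 fell by 1.63 on the log2 scale on CD (SE 0.26, edgeR adjusted p = 0.000553), differed by 0.00 on LPD (SE 0.25) and was 1.69 higher on LPD than on CD with the oncogenes (SE 0.26, adjusted p = 0.00135). Tmprss6, the protease that cleaves the BMP co-receptor hemojuvelin and so lowers hepcidin, fell by 0.61 on CD (adjusted p = 0.00426). Of the other called genes on CD, the receptor gene Acvr2a fell by 0.44, and Smad5 and Smad1, which carry the signal, rose by 0.92 and 0.49.

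Of the 5 SMAD targets other than Id1, 3 were called on CD, where 16.7% of all genes were called lower, and all 3 were lower: Id3 by 1.05 (edgeR adjusted p = 0.0179), Smad7, an inhibitor of the pathway, by 0.70 (adjusted p = 0.0309), and Id2 by 0.62 (adjusted p = 0.0372). Smad6 and Atoh8 had −0.92 (adjusted p = 0.0518) and −0.69 (adjusted p = 0.176) and were not called. With the oncogenes 4 of 5 were higher on LPD than on CD, beside 8.66% of all genes, Atoh8 by 1.32 (adjusted p = 0.0289), Smad7 by 1.01 (adjusted p = 0.00968), Id3 by 0.96 (adjusted p = 0.042) and Id2 by 0.84 (adjusted p = 0.0162). Smad7 was at 13.4 to 16.1 CPM in CD Vec and at 6.10 to 11.4 CPM in the CD c-MET/β-catenin livers, whereas the Id3 ranges of these groups met at 34.7 CPM, from 34.7 to 89.0 and from 22.5 to 34.7 CPM. None of the SMAD targets was called for the interaction.

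**Figure D4:**
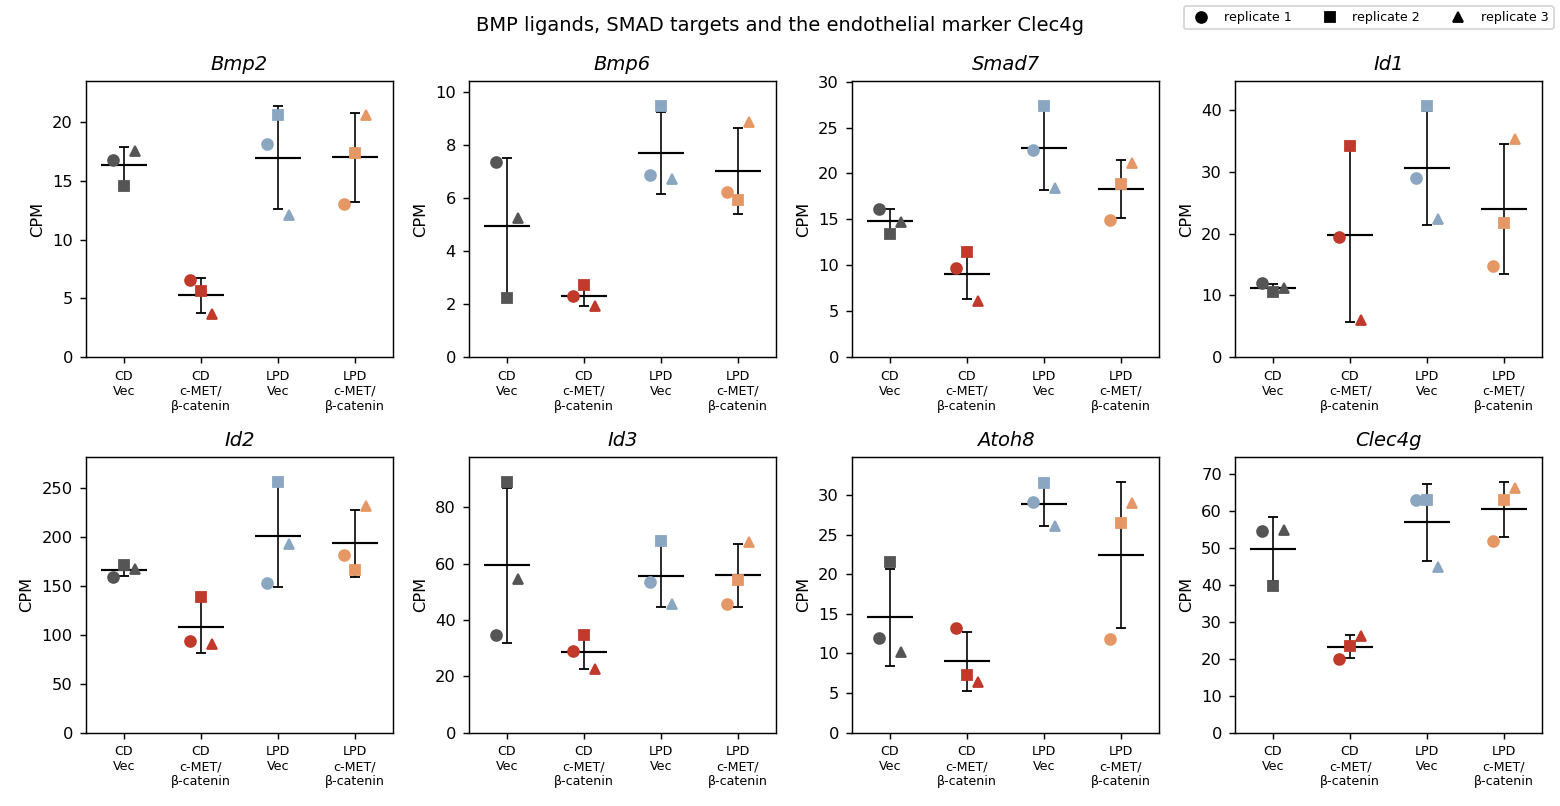
CPM of the ligands Bmp2 and Bmp6, of 5 SMAD targets and of the sinusoidal endothelial marker Clec4g, with 1 point per liver, a line at the group mean and bars of 1 SD. Bmp2 and Clec4g are lowest in all 3 CD c-MET/β-catenin livers, at 3.63 to 6.53 and 20.1 to 26.3 CPM, and Id1 has no such separation. Clec4g is 1 of 8 endothelial markers, of which 4 had a log2 fold change above 0 on CD.

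Of 8 tested genes of the inflammatory input to hepcidin, 2 were called higher and none lower on CD, where 18.7% of all genes were called higher: Socs3, which STAT3 induces, by 1.67 (SE 0.35, edgeR adjusted p = 0.00325), and Stat3 by 0.81 (adjusted p = 0.0368). Socs3 was at 3.36 to 8.54 CPM in CD Vec and at 10.6 to 22.4 CPM in the CD c-MET/β-catenin livers, and was 1.30 lower on LPD with the oncogenes (adjusted p = 0.02). Il6 itself had too few reads to be tested. Erfe, encoding erythroferrone, was at 1.06 CPM or less in every liver and was not called on CD (log2 fold change 1.33, adjusted p = 0.113).

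Among the genes of iron handling, 3 of 11 tested uptake and transport genes outside the members rose on CD and none fell, beside 18.7% and 16.7% of all genes: Slc11a2, the ferrous iron importer, by 1.16, the haptoglobin gene Hp by 0.76 and the hemopexin gene Hpx by 0.57. The ferroxidase gene Cp rose by 0.80 (edgeR adjusted p = 0.00124). Both genes of iron regulatory proteins, Aco1 and Ireb2, fell, by 0.77 and 0.81, and Ireb2 was positive for the interaction (0.81, adjusted p = 0.0176). Of 6 iron-sulphur cluster and mitochondrial genes, Iscu and Nfs1 fell by 0.77 and 0.51. None of the 4 tested storage genes besides Fth1 was called, the ferritin light chain gene Ftl1 having −0.42 (adjusted p = 0.0793).

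Of 8 genes of haem synthesis, 2 fell on CD, beside 16.7% of all genes, the rate-limiting Alas1, which fell by 2.15 (SE 0.53, edgeR adjusted p = 0.00872) and Cpox, which fell by 0.39, and the other 6 were not called. Of 4 breakdown genes 2 rose, beside 18.7% of all genes, Hmox1 by 1.83 (SE 0.51, edgeR adjusted p = 0.0165) and Blvrb by 0.97, and Hmox2 and Blvra were not called (0.12 and −0.28). On CD, Alas1 was at 483 to 1456 CPM in Vec and at 138 to 226 CPM in c-MET/β-catenin, and on LPD at 58.0 to 175 and 139 to 322 CPM. The CD Vec livers were the highest, and the interaction of 3.50 (SE 0.74, adjusted p = 0.0184) came with a diet difference in Vec of −3.02 (adjusted p = 0.0505).

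**Figure D5:**
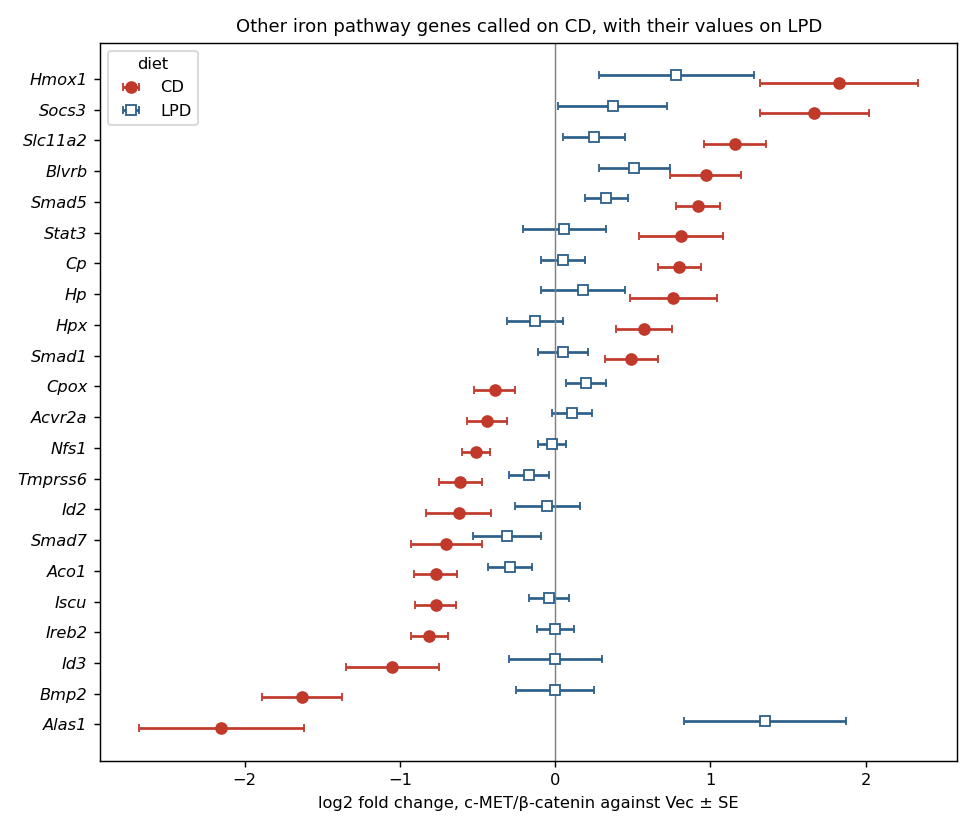
Log2 fold change with its standard error, c-MET/β-catenin against Vec, for the 22 other pathway genes called on CD, with the value on LPD beside each. The LPD values of Bmp2, Id3 and Ireb2 lie at 0.00 and that of Alas1 at 1.35, none of the LPD values being called.

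Markers of the cells in the tissue were read beside these results. The label names hepatocytes, but the samples are whole snap-frozen liver, and markers of other cell types were present. The 8 hepatocyte markers summed to 94310 to 101300 CPM in the CD c-MET/β-catenin livers and to 108800 to 112500 CPM in CD Vec, with 2 of 8 called, Ttr and Apob, both lower, beside 16.7% of all genes. Of 8 sinusoidal endothelial markers, whose cells make Bmp2 and Bmp6, Clec4g fell by 1.09 and Oit3 by 1.03 on CD, beside 16.7% of all genes called lower. Kdr and Fcgr2b had −0.96 (edgeR adjusted p = 0.0526) and −0.69 (adjusted p = 0.0675) and were not called. The other 4, also not called, lay above 0 (Lyve1 0.93, Pecam1 0.34, Stab2 0.07 and Stab1 0.06). Clec4g, Oit3 and Fcgr2b were higher on LPD than on CD in c-MET/β-catenin livers. All 8 endothelial markers summed to 156 to 297 CPM in CD Vec and 156 to 230 CPM in the CD c-MET/β-catenin livers, overlapping, and none was at 0. Of 8 stellate cell markers 5 were lower and 1 higher on CD, beside 16.7% and 18.7% of all genes, with sums of 311 to 413 and 217 to 363 CPM.

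Some markers of other cells were also called on CD, where 18.7% of all genes were called higher and 16.7% lower. With at most 8 tested genes per list, these counts are a description and do not mark a change in cell content. Of 5 tested cholangiocyte markers, Krt19 rose by 2.91 and Spp1 by 2.87, and the summed markers were at 36.8 to 46.5 CPM in CD Vec and at 121 to 384 CPM in the CD c-MET/β-catenin livers, without overlap, beside 40.8 to 57.9 CPM in the 6 LPD livers. Most of that sum was Spp1, and the other 3 markers were not called (Krt7 0.33, Sox9 −0.41 and Epcam −0.50). Of 3 tested neutrophil markers, S100a8 rose by 2.20 and S100a9 by 1.95, with sums of 3.57 to 5.42 and 6.96 to 18.9 CPM, and Csf3r was not called (0.12). Of 8 Kupffer cell markers, C1qa rose by 1.32 and Folr2 by 0.82, with sums of 109 to 239.7 and 202 to 362 CPM, which overlapped. The other Kupffer cell markers were not called, with log2 fold changes from −0.25 (Marco) to 0.98 (Cd5l). Of 8 T and NK cell markers, Cd8a rose by 3.72 and Gzma by 2.42 and Cd4 fell by 1.60, with overlapping sums of 3.16 to 5.94 and 4.91 to 8.98 CPM. Cd8a had a mean of only 0.107 CPM in CD Vec. The other T and NK cell markers were not called, with log2 fold changes from −0.04 (Cd3g) to 1.28 (Trbc2). None of these markers was called on LPD, where 1.32% of all genes were. All 8 Kupffer cell markers and all 8 T and NK cell markers had a log2 fold change above 0 there. The Kupffer cell sums were 162 to 202 CPM in LPD Vec and 217 to 390 CPM in LPD c-MET/β-catenin, without overlap. Those of T and NK cells were 3.12 to 5.23 and 6.67 to 9.84 CPM, also without overlap.

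Of 6 tested erythroid markers 5 were higher on CD, beside 18.7% of all genes, and none was called on LPD, where 1.32% of all genes were. The sixth, Alas2, had −0.81 on CD (adjusted p = 0.0818). Slc4a1 was at 0.104 to 0.398 CPM in CD Vec and at 4.77 to 9.71 CPM in the CD c-MET/β-catenin livers. The summed erythroid markers were dominated by Alas2 and overlapped, at 170 to 222 CPM in CD Vec and 81.3 to 288 CPM in the CD c-MET/β-catenin livers. All 8 proliferation markers were higher on CD and 4 of 8 on LPD, beside 18.7% and 1.15% of all genes, with sums of 4.49 to 14.5 CPM in Vec and 132 to 191 CPM with the oncogenes on CD, and 16.97 to 53.0 CPM with the oncogenes on LPD. The part of these cells in the levels of hepcidin, Bmp6, Bmp2 or Tfrc was not tested.

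Across the 12 livers the members sorted by their likeness to the hepcidin sum on log2 CPM, as a description over libraries that share groups and diets. Pearson's r was 0.85 for Tfr2, 0.74 for Slc40a1 and 0.73 for Bmp6, 0.39 for Id1 and 0.38 for Hfe, and −0.45 for Fth1, −0.85 for Trf and −0.90 for Tfrc. Hamp and Hamp2 gave 0.62 with each other. Among the 9434 tested genes with a mean of at least 5 CPM, the patterns most like the sum included those of Apoa5 (r = 0.98), Il15ra (0.96), Col27a1 (0.96) and Tnxb (0.95), and the most opposite were those of Srxn1 (−0.97), Eid1 (−0.97) and Ints1 (−0.96). The 3 CD c-MET/β-catenin livers stood apart from the other 9 in the sum, so these values describe mostly that separation.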

How the data were processed

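RNA from snap-frozen liver of 12 mice was sequenced, with 1 library per mouse and 3 mice per group, grouped by their titles in the labels. The labels describe depletion of ribosomal RNA and the study's methods selection of mRNA. The titles call the vector controls WT, and the column names call chow HPD. The deposited values are integer read counts per gene, which the authors made with HISAT2 on mm10 and featureCounts. Versions, strand setting and treatment of multi-mapping reads are not given in the sources used here, so reads of paralogs may be split or lost. Symbols were matched from Entrez identifiers for 25293 of 27179 genes (93.1%).

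Counts were fitted with edgeR 4.0.16 in R 4.3.3 (TMM, filterByExpr, robust quasi-likelihood, all 4 groups in 1 fit, adjusted p under 0.05 over 13947 genes), tested on simulated data. The sum of Hamp and Hamp2 was tested in a second fit in which it replaced both. CPM per kb used exon lengths of GENCODE M21. Patterns were compared as log2 CPM (prior count 2). The members and all gene lists were chosen with earlier results of these data known. All 10 members are named, and of each iron list all genes called on CD where there were 4 or fewer, otherwise the 2 largest changes in each direction. Marker genes were named freely. Alternatives were size factors by RLE, total counts alone, no filter on low counts, DESeq2 1.42.0, fits of the compared groups only, a replicate block, a term for runs of dataset numbers in the header, and leaving out each library. The labels do not say whether mice shared a litter or a day. With 3 livers per group, p-values set a group difference against a spread between mice that was estimated over all 4 groups. Some items are not reported here.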

Additional observations from a re-analysis of the deposited data

Results flagged for a closer look

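For these results the log2 effect of c-MET/β-catenin differed between LPD and CD by the injection by diet interaction of the edgeR fit. It is given as the effect on LPD minus that on CD. Diet was not separated from tumor burden, which was lower on LPD at this harvest by the paper's account. Among the members this was 3.66 for the sum of Hamp and Hamp2, 3.56 for Hamp, 4.55 for Hamp2 and 0.94 for Slc40a1. Hamp2 rested on 4, 29 and 30 reads in the CD c-MET/β-catenin livers, and its value without CD Vec replicate 1 was 3.23 (adjusted p = 0.0649). Among the other iron genes it was 1.64 for the ligand Bmp2, −0.75 for the ferroxidase Cp, 0.81 for Ireb2, 0.73 for Iscu, 0.49 for Nfs1 and 3.50 for Alas1. No group was large enough to look for single livers far from the others.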

How the results depend on the processing

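The hepcidin sum stayed called on CD and between the diets with the oncogenes under all 7 alternatives and all 12 fits with 1 library left out (CD −5.88 to −3.42, diets 3.08 to 5.80), and was called on LPD or between the diets in Vec in none. In Vec it was −0.10, and turned to 0.01 with total counts, to 0.04 with the header run term, and lay between −0.26 and 0.11 with 1 library left out. Its interaction lay between 3.18 and 4.29 with 1 library left out, called in 9 of 12 fits. The run term left 2 members and 2 other iron genes called on CD, 2 and 3 between the diets with the oncogenes, and 1 and 0 for the interaction, where it uses up samples and overlaps with group. Members called for the interaction (3) were 1 without the low-count filter, 5 with DESeq2, and 0 to 4 with 1 library left out, 0 without 1 of LPD Vec replicates 2 and 3, c-MET/β-catenin replicate 3 on LPD and replicate 1 on CD. Other iron genes called for it (6) were 10 with DESeq2 and 1 to 7 with 1 library left out. Those called on CD (22) were 13 with only the compared groups, and those between the diets with the oncogenes (15) were 6 to 19 with 1 library left out, 6 without LPD c-MET/β-catenin replicate 3. Those between the diets in Vec (0) were 1 with RLE, 1 with total counts, 2 with DESeq2 and 0 to 2 with 1 library left out. The causes were not tested. Replicate numbers did not pair the livers: 2 of 18 same-numbered pairs correlated over 0.1 (r −0.18 to 0.17), and 3 of 12 livers matched their own number best. The replicate block gave 1 member (the sum 3.81, still called) and 3 other iron genes for the interaction and lost Bmp6 on CD. Total counts alone moved the median of all genes to 0.278 on CD, 0.121 on LPD and −0.156 for the interaction, and the share of called genes that were higher from 52.8% to 78.8% on CD. Low counts limit Hamp2 and Erfe, and left Il6 untested.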
